A study of Mus musculus with 6 samples.

Results

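Mfsd2a and 7 lysophospholipid acyltransferases (Lpcat3, Mboat7, Mboat1, Mboat2, Lpcat1, Lpcat2 and Lpcat4) were followed in mouse liver RNA. These 8 genes were taken by symbol from the 48699 rows of the expression table, and all 8 symbols were found. Liver from 3 hepatocyte-specific Fxr-/- Shp-/- double knockout mice was compared with liver from 3 control mice that carry floxed Fxr and floxed Shp alleles (fl/fl). Fxr is the gene Nr1h4, which encodes the bile acid receptor, and Shp is Nr0b2, which encodes a nuclear receptor that represses transcription. All animals were C57BL/6 males of 10 to 12 weeks, and every liver, control livers included, came from a mouse that had gone without food for 8 to 10 hours overnight. The column headers of the expression values name chow for every library. The sources used here do not give the Cre driver. Whole liver was sequenced, so cells other than hepatocytes keep both receptors and contribute RNA to every library. The labels number the replicates and do not say in so many words that each is 1 animal, so p-values measure the spread between these libraries, which may in part be technical.

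Lysophospholipids are phospholipids that have lost 1 of their acyl chains. Mfsd2a is a sodium-dependent transporter that carries lysophosphatidylcholine, above all the species with docosahexaenoic acid, across the plasma membrane. It is best known at the blood-brain barrier, and in mouse liver its RNA is known to be induced by fasting, through PPARA. Inside the cell, the acyltransferases of the Lpcat and Mboat groups put a new acyl chain on a lysophospholipid, the second step of the deacylation and reacylation loop known as the Lands cycle. Lpcat3 is the main lysophosphatidylcholine acyltransferase of liver and prefers polyunsaturated chains, and Mboat7 puts arachidonate on lysophosphatidylinositol.

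The members were chosen by name with this contrast in view: Mfsd2a was selected on its measured difference between double knockout and control FPKM, and the acyltransferases because they handle the same lipids. The members' values are therefore given as a description, and no test is attached to them. Values are FPKM, fragments scaled to the length of the transcript and to the library total, as the authors deposited them. FPKM is scaled for transcript length, so levels can also be set side by side between genes. A log2 difference below is the double knockout mean minus the control mean of log2(FPKM + 1), a scale that understates changes of low genes.

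The start regions of Mfsd2a, Lpcat3 and Mboat7 are shown because these are the members with levels well above a few FPKM in at least 1 group, and because their start regions differ in make-up. Each runs from 250 bases before to 50 bases after the RefSeq start, on GRCm38.p6, 5′ to 3′ on the strand of the gene. Capitals mark every AGGTCA (the half-site that many nuclear receptors bind) and every GGGCGG (the GC box), read on both strands, so TGACCT and CCGCCC are also in capitals.
Mfsd2a, chr4:122961139-122961438, minus strand: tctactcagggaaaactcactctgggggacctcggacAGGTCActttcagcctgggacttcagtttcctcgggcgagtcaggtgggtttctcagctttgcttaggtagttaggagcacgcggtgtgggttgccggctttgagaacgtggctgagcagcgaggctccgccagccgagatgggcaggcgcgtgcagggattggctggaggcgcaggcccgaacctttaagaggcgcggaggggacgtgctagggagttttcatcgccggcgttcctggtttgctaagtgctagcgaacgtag
Lpcat3, chr6:124662854-124663153, plus strand: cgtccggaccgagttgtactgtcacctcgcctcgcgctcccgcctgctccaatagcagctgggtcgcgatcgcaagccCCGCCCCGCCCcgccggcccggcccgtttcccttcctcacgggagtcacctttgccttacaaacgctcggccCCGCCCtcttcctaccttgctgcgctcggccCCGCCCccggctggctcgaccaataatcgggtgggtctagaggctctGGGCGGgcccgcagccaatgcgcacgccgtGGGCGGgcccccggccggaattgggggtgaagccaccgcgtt
Mboat7, chr7:3692937-3693236, minus strand: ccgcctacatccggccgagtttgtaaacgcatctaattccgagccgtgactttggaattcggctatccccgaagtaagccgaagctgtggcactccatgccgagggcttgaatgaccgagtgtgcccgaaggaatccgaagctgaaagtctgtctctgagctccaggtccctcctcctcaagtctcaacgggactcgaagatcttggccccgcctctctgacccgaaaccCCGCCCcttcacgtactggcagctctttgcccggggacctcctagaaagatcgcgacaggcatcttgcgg

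Mfsd2a was the only member with an AGGTCA in its window, with 1 match whose first base lies 213 bases before the start. Of 32851 mouse promoter windows of the same length, 16.3% hold that motif, so such a match is common. None of the 8 members held the paired forms AGGTCANTGACCT (0.00913% of windows), AGGTCANAGGTCA (0.0396%) or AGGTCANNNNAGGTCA (0.0152%), each of which contains the half-site and was searched on both strands. Mfsd2a was also the only member without a GC box. The other 7 each held at least 1 (6 each in Lpcat3 and Mboat2, 3 each in Lpcat1, Lpcat4 and Mboat1, 2 in Lpcat2 and 1 in Mboat7), against 35.7% of all windows. CCAAT, on either strand, was present in 5 of the 8 windows, with 4 matches in Lpcat3 and 1 in Mfsd2a, against 37.4% of all windows. TATAAA was present in Lpcat2 alone, against 13.6% of all windows. The GC content was 60.3% for Mfsd2a, 71.0% for Lpcat3, 58.3% for Mboat7 and 54.7% to 79.0% over all 8. A match is a string of letters in this window and says nothing of binding.

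Mfsd2a was low in the double knockout livers and abundant in the control livers. The gene (ENSMUSG00000028655.11) lies on chromosome 4 from 122946850 to 122961188 on the minus strand of GRCm38, with 4 transcripts in GENCODE M21, and no other annotated gene overlaps it. It measured 1.48, 0.270 and 2.55 FPKM in double knockout replicates 1, 2 and 3, and 63.3, 70.7 and 22.4 FPKM in control replicates 1, 2 and 3. All 3 double knockout values were below all 3 control values, and the lowest control lay 8.76-fold above the highest double knockout. The means were 1.43 ± 1.14 FPKM in double knockout livers and 52.1 ± 26.0 FPKM in control livers (SD, n = 3 each), a log2 difference of -4.41. The ratio of those means was 36.3-fold, lower in the double knockouts.

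Within each group Mfsd2a was the most variable of the 3 members shown above. The highest library was 9.44-fold above the lowest among the double knockouts and 3.16-fold among the controls. For Lpcat3 the same ratios were 1.31 and 1.11, and for Mboat7 they were 1.20 and 1.88. The steps between the lowest FPKM values give a rough count of fragments behind a value, here between the count for the mean annotated transcript length and the count for the longest transcript. On that basis Mfsd2a rested on about 26 to 45, 5 to 8 and 44 to 77 fragments in double knockout replicates 1, 2 and 3, so the differences among them carry large counting error. In control replicates 1, 2 and 3 it rested on about 1023 to 1796, 1224 to 2149 and 376 to 660 fragments.

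By rank among the 11810 tested genes, those whose FPKM averaged 0.5 or more, Mfsd2a stood at 9563, 11669 and 8432 in the double knockouts and at 1149, 1125 and 2796 in the controls (rank 1 is the most abundant). Only 29 of those genes, Mfsd2a included, had a ratio of group means as large in the same direction, 0.246% of the genes tested. Mfsd2a was chosen for this contrast, so its place in that order is a description. The authors' deposited table listed 1.43 FPKM for the double knockout group and 52.1 FPKM for the control group.

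Control replicate 3 had the lowest Mfsd2a of its group and stood apart from the other controls in several ways. Across tested genes its log2 values correlated at 0.952 and 0.955 with control replicates 1 and 2, which correlated at 0.983 with each other (across genes, which are not independent replicates). Its correlations with the double knockouts were as high, at 0.956 for replicate 1, 0.954 for replicate 2 and 0.966 for replicate 3. The summed FPKM of 15 immediate-early genes, which respond within minutes to stress and handling, was 72.6 to 207 in the double knockouts, and 63.7, 84.1 and 870 in control replicates 1, 2 and 3. For 14 of those 15 genes the highest library was control replicate 3. Among the controls, the lowest Mfsd2a and the highest immediate-early sum thus fell in the same library. Among the double knockouts the direction was the opposite, as replicate 3 had the highest sum (207) and the highest Mfsd2a (2.55 FPKM). The part of these genes in the level of Mfsd2a was not tested. Without control replicate 3 the control mean of Mfsd2a was 67.0 FPKM, the ratio was 46.7-fold and the log2 difference was -4.92.

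**Figure D1:**
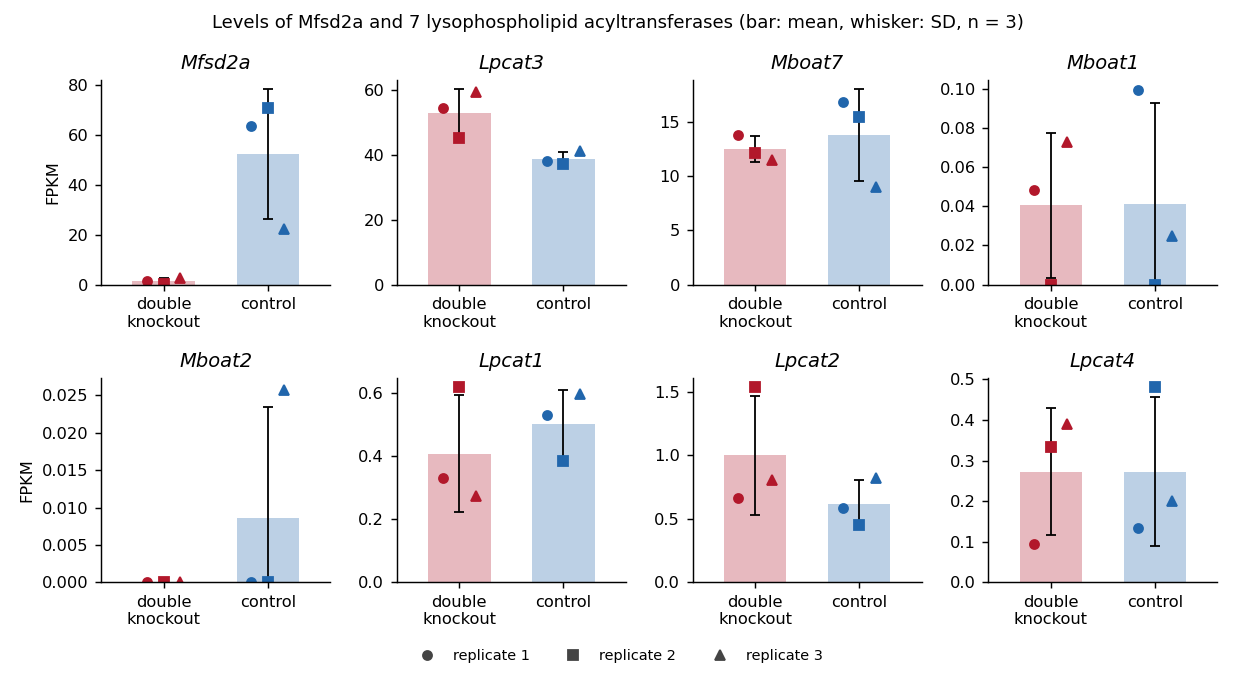
FPKM of the 8 members in double knockout (red) and control (blue) livers, each gene on its own linear axis from 0. Points are libraries, with a symbol for each replicate number, bars are group means and whiskers are SD (n = 3 each). Mfsd2a sits between 0.270 and 2.55 FPKM in the double knockouts and between 22.4 and 70.7 FPKM in the controls, Lpcat3 is higher in all 3 double knockouts, and the groups overlap for the other 6 genes.

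The plot of FPKM by member and library shows that 2 of the 8 members did not overlap between groups, Mfsd2a on the low side and Lpcat3 on the high side. Of all tested genes, 22.9% did not overlap, 11.3% with the double knockouts higher and 11.6% with them lower. Of the 8 members, 4 passed the filter of 0.5 FPKM on the mean of all 6 libraries (Mfsd2a, Lpcat3, Mboat7 and Lpcat2), and 4 did not (Lpcat1, Lpcat4, Mboat1 and Mboat2). The share over all genes covers tested genes only. Both members without overlap are among the 4 tested, and 1 of them, Mfsd2a, was chosen for this contrast. The authors' deposited table also marked 4 members as tested and 4 as not tested.

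Lpcat3 was the most abundant of the 7 acyltransferases in every library and somewhat higher in the double knockouts. It measured 54.5, 45.3 and 59.4 FPKM in double knockout replicates 1, 2 and 3, and 38.1, 37.2 and 41.1 FPKM in control replicates 1, 2 and 3. The lowest double knockout value was above the highest control value. The means were 53.1 ± 7.17 FPKM in double knockout livers and 38.8 ± 2.09 FPKM in control livers (SD, n = 3 each), a 1.37-fold ratio and a log2 difference of 0.43, which was 0.48 without control replicate 3.

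Abundant genes as a whole lay slightly lower in the double knockouts. The median log2 difference was -0.01 over all tested genes and -0.18 over the 2907 genes that averaged 20 FPKM or more. Quantile normalization brought the median of those abundant genes to -0.04, and the log2 difference of Lpcat3 was then 0.58. Lpcat3 (ENSMUSG00000004270.13) lies on chromosome 6 from 124663027 to 124704418 on the plus strand, with 9 transcripts, and its last bases overlap Emg1, a ribosome biogenesis gene on the opposite strand. The deposited locus spans both genes. The sources used here do not say whether counting used strand, so fragments from the overlap cannot be assigned to either gene with certainty. Emg1 itself measured 36.5, 30.8 and 42.4 FPKM in the double knockouts, and 37.4, 53.1 and 53.2 FPKM in the controls, so its mean differed in the opposite direction.

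Mboat7 did not separate the groups. It measured 13.8, 12.2 and 11.5 FPKM in double knockout replicates 1, 2 and 3, and 16.9, 15.5 and 8.99 FPKM in control replicates 1, 2 and 3. Control replicate 3 was the lowest of all 6 libraries, and the other controls were the highest. The means were 12.5 ± 1.18 FPKM in double knockout livers and 13.8 ± 4.23 FPKM in control livers (SD, n = 3 each), a log2 difference of -0.09. The difference was -0.35 without control replicate 3 and 0.07 without control replicate 1, so its sign depended on which controls were used. Mboat7 (ENSMUSG00000035596.14, chromosome 7, 3677789 to 3693523, minus strand, 13 transcripts) overlaps the start of Tsen34, a tRNA splicing endonuclease gene on the opposite strand, and the same uncertainty about strand applies. Tsen34 measured 16.7, 15.2 and 19.0 FPKM in the double knockouts, and 17.7, 24.1 and 20.8 FPKM in the controls.

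Shares within a library do not depend on how the library was scaled. Of the summed FPKM of the 7 acyltransferases, Lpcat3 took 78.5%, 75.5% and 82.0% in double knockout replicates 1, 2 and 3, and 67.6%, 68.8% and 79.4% in control replicates 1, 2 and 3. Mboat7 took 19.9%, 20.4% and 15.9% in the double knockouts, and 30.0%, 28.7% and 17.4% in the controls. In both cases control replicate 3 lay inside the range of the double knockouts and control replicates 1 and 2 lay outside it.

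**Figure D2:**
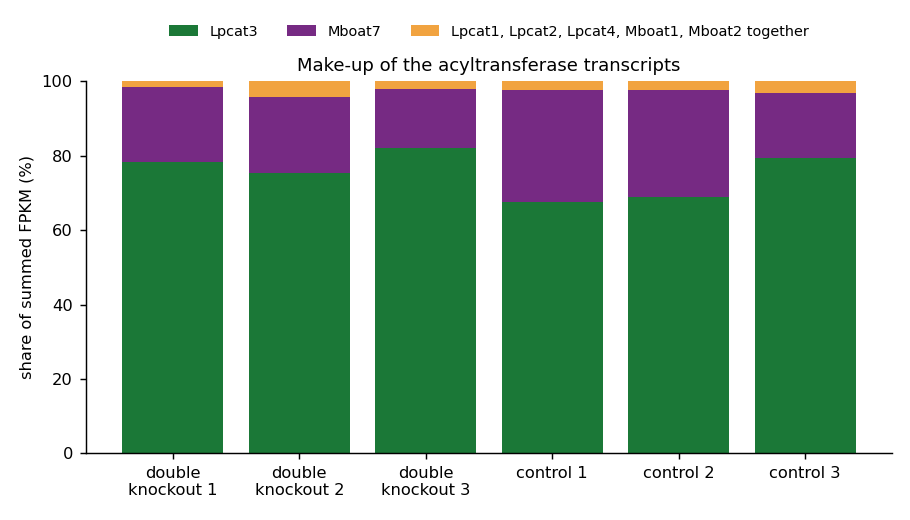
Share of Lpcat3 (green), Mboat7 (purple) and the other 5 acyltransferases together (orange) in the summed FPKM of the 7 acyltransferases, in percent, for each library. Lpcat3 takes 75.5% to 82.0% in the double knockouts and 67.6% to 79.4% in the controls, and the other 5 together never exceed 4.15%.

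The bars of acyltransferase shares show 1 dominant transcript and 1 minor one in each liver. The Lpcat3 share averaged 78.6% ± 3.23 in double knockouts and 71.9% ± 6.51 in controls (SD, n = 3 each), a difference of 6.69 percentage points that is about as large as the spread among the controls. The Mboat7 share averaged 18.7% ± 2.44 in double knockouts and 25.4% ± 6.97 in controls (SD, n = 3 each). The ratio of Lpcat3 to Mboat7 was 3.94, 3.71 and 5.15 in the double knockouts, and 2.25, 2.40 and 4.58 in the controls. The summed FPKM of the 7 genes was 69.5, 60.0 and 72.5 in the double knockouts, and 56.3, 54.0 and 51.8 in the controls, without overlap. Lpcat3 made up at least 67.6% of that sum in each library.

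Lpcat2 codes for an enzyme of inflammatory cells that also makes platelet-activating factor from its lyso form. It measured 0.663, 1.53 and 0.801 FPKM in double knockout replicates 1, 2 and 3, and 0.587, 0.448 and 0.817 FPKM in control replicates 1, 2 and 3. The groups overlapped, and double knockout replicate 2 was highest. The means were 0.999 ± 0.468 FPKM in double knockout livers and 0.617 ± 0.186 FPKM in control livers (SD, n = 3 each), a log2 difference of 0.29. Without double knockout replicate 2 it was 0.10. These values rest on about 16 to 60 fragments per double knockout library and 11 to 32 per control library.

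Macrophage markers moved with Lpcat2 at both ends of the scale. The summed FPKM of 10 Kupffer cell and macrophage markers was 160, 384 and 136 in double knockout replicates 1, 2 and 3, and 114, 94.3 and 227 in control replicates 1, 2 and 3. Double knockout replicate 2 was the highest library for all 10 markers, and control replicate 3 had the second-highest sum. The same pair of libraries had the highest and second-highest Lpcat2, and control replicate 2 had the lowest of both. The match at the top is not particular to macrophage markers. Summed sinusoidal endothelial markers were also highest in double knockout replicate 2 (84.6) and next in control replicate 3 (76.3), with their lowest sum in double knockout replicate 1 (42.7). Summed stellate cell markers were highest in double knockout replicate 2 too (117). None of the 10 markers was listed at 0 in all libraries. The part of these markers in the level of Lpcat2 was not tested, and in whole liver more cells of a type and more RNA per cell cannot be told apart.

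**Figure D3:**
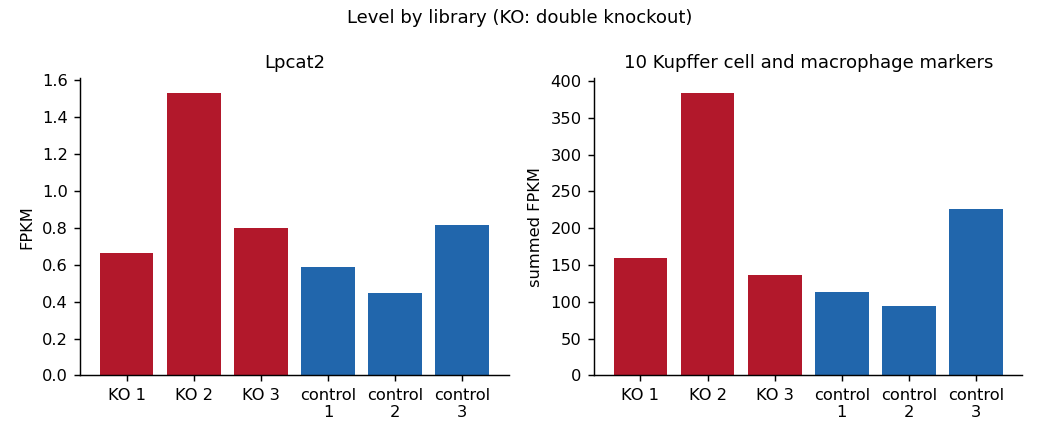
FPKM of Lpcat2 (left) and summed FPKM of 10 Kupffer cell and macrophage markers (right) in each library, with double knockouts (KO) in red and controls in blue, on linear axes from 0. Double knockout replicate 2 is the highest bar in both panels, at 1.53 FPKM and at 384 FPKM.

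The paired panels of Lpcat2 and the macrophage markers hold 6 libraries and are a description. Lpcat1, known for putting saturated chains on lysophosphatidylcholine in lung surfactant, measured 0.332, 0.619 and 0.274 FPKM in the double knockouts, and 0.530, 0.384 and 0.596 FPKM in the controls. Double knockout replicate 2 was again the highest library, and the groups overlapped. The means were 0.408 ± 0.185 FPKM in double knockout livers and 0.503 ± 0.109 FPKM in control livers (SD, n = 3 each).

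Lpcat4, a lysophosphatidylethanolamine acyltransferase of the Agpat family, measured 0.0948, 0.334 and 0.390 FPKM in the double knockouts, and 0.134, 0.480 and 0.201 FPKM in the controls, with a log2 difference of 0.00. Mboat1 and Mboat2 code for acyltransferases that act on lysophosphatidylethanolamine and, for Mboat1, lysophosphatidylserine. Mboat1 was at 0.0484 and 0.0728 FPKM in double knockout replicates 1 and 3 and was listed at 0 in replicate 2. In the controls it was at 0.0991 and 0.0249 FPKM in replicates 1 and 3 and likewise listed at 0 in replicate 2. Mboat2 was listed at 0 in all 3 double knockouts and in control replicates 1 and 2, and was at 0.0258 FPKM in control replicate 3. These levels amount to at most about 4 fragments in a library for Mboat1 and 2 for Mboat2, so a difference between groups was not detectable at this depth.

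Set in order of mean FPKM, the double knockout livers gave Lpcat3, Mboat7, Mfsd2a, Lpcat2, Lpcat1, Lpcat4, Mboat1 and Mboat2. The control livers gave Mfsd2a, Lpcat3, Mboat7, Lpcat2, Lpcat1, Lpcat4, Mboat1 and Mboat2, so Mfsd2a was at the top in the controls and below Lpcat3 and Mboat7 in the double knockouts, while the acyltransferases kept their order. In the double knockouts Mfsd2a did not differ from Lpcat2 beyond the spread of the libraries, nor did Lpcat1 from Lpcat4 or Mboat1 from Mboat2. In the controls, neither Mfsd2a and Lpcat3, nor Lpcat1 and Lpcat4, nor Mboat1 and Mboat2 differed beyond it. The control ranges of Lpcat2 and Lpcat1 overlapped, but Lpcat2 was above Lpcat1 in each control library. Control replicates 1, 2 and 3 gave 0.587, 0.448 and 0.817 FPKM for Lpcat2, and 0.530, 0.384 and 0.596 FPKM for Lpcat1.

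The deleted genes and the markers of liver cells give the setting for these values. Nr0b2 measured 0.216, 0.0734 and 0.293 FPKM in the double knockouts, and 14.7, 17.6 and 18.7 FPKM in the controls. Nr1h4 measured 21.1, 15.5 and 22.0 FPKM in the double knockouts, and 59.8, 71.8 and 68.0 FPKM in the controls, and the value of the whole gene does not separate a deleted exon from the rest. The summed FPKM of 8 hepatocyte markers was 40008 to 61051 in the double knockouts and 67237 to 80728 in the controls, with 6 of the 8 lower by their means, and none at 0. Alb was the largest part of that sum, with means of 24950 FPKM in double knockouts and 40888 FPKM in controls. It was the only 1 of the 8 without overlap between the groups. For 8 sinusoidal endothelial markers the sum was 42.7, 84.6 and 54.4 in the double knockouts, and 61.2, 67.7 and 76.3 in the controls. The library with the lowest Mfsd2a, double knockout replicate 2, had the lowest hepatocyte sum and the highest endothelial sum. The hepatocyte sum differed 1.40-fold between the group means and Mfsd2a 36.3-fold, and the part of cell make-up in the level of Mfsd2a was not tested. The sums of cholangiocyte markers were 59.1 to 63.7 in the double knockouts and 33.7 to 44.2 in the controls, those of stellate cell markers 46.2 to 117 in the double knockouts and 46.5 to 92.8 in the controls, and those of lymphocyte and neutrophil markers 2.51 to 17.4 in the double knockouts and 1.18 to 48.1 in the controls. Spp1 made up most of the cholangiocyte sum, with means of 58.5 FPKM in double knockouts and 36.0 FPKM in controls.

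The genes around Mfsd2a on chromosome 4 gave differences far smaller than its own, and 1 tested neighbour did not overlap between the groups. Of 12 other genes in loci that start within 200 kb, 5 had a mean of at least 0.5 FPKM (Cap1, Ppt1, Mycl, Trit1 and Ppie), and 0 of the 5 passed the threshold in limma, with 1 at an unadjusted p under 0.05 and 0 called in the authors' deposited table. Ppie, a cyclophilin of the spliceosome, measured 7.16, 6.32 and 6.61 FPKM in the double knockouts, and 8.59, 10.7 and 11.5 FPKM in the controls (log2 difference -0.54, limma adjusted p = 0.200), without overlap. The other 4 had log2 differences from -0.12 to 0.20, with groups that overlapped. The nearest start belongs to 4933421A08Rik, an uncharacterized transcript that runs the other way from a start 121 bases from that of Mfsd2a. It was listed at 0 in all 3 double knockouts, and measured 0.147 and 0.275 FPKM in control replicates 1 and 2 and 0 in control replicate 3, the lowest control for Mfsd2a too. All of these levels are below the filter.

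The 5 genes whose profile over the 6 libraries was most like that of Mfsd2a were sought among 2619 tested genes with a log2 range of at least 1. Profiles of log2(FPKM + 1) were scaled to a mean of 0 and an SD of 1, and likeness is the root mean square difference between 2 scaled profiles, so it takes no account of the size of a change. The closest was Cyp2a12, a cytochrome P450 (0.106), followed by Hsd17b13, a lipid droplet protein (0.128), Tdo2, tryptophan dioxygenase (0.147), Pbld2 (0.159) and Olig1, a transcription factor of oligodendrocytes (0.164). All 5 were lower in every double knockout than in any control, and all 5 had their lowest control in replicate 3, as Mfsd2a did. They were picked for likeness over these same 6 libraries, so both shared traits follow from the choice and are a description.

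The levels and differences of these genes varied widely. Cyp2a12 measured 155, 149 and 174 FPKM in the double knockouts, and 404, 431 and 293 FPKM in the controls. Olig1 measured 0.0334, 0.0337 and 0.135 FPKM in the double knockouts, and 5.23, 4.82 and 2.03 FPKM in the controls. The 3 double knockout values of Olig1 rest on about 1, 1 and 4 fragments, so no ratio is given for it. The ratio of the group means was 2.36-fold for Cyp2a12, 1.88-fold for Hsd17b13, 1.83-fold for Tdo2 and 1.86-fold for Pbld2, lower in the double knockouts in each case. Reads of Cyp2a12 may be shared with its Cyp2a paralogs, and the sources used here do not say how the authors assigned such reads.

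**Figure D4:**
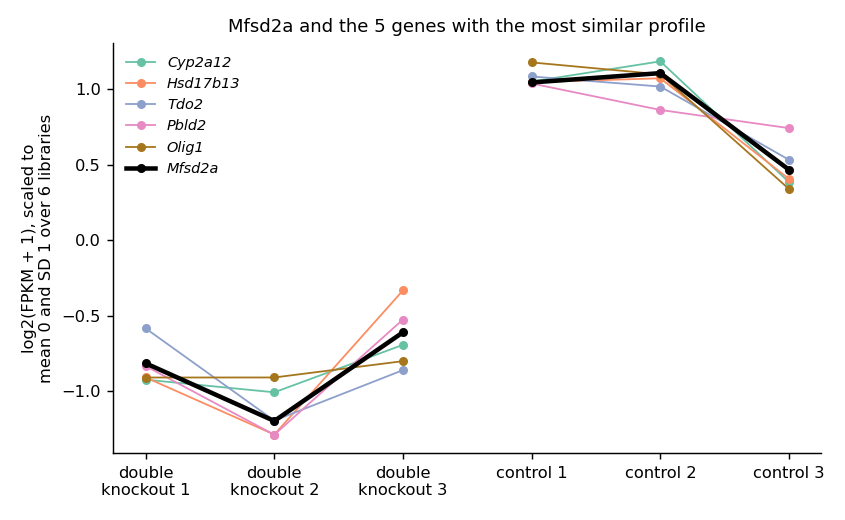
log2(FPKM + 1) of Mfsd2a (black) and the 5 genes with the most similar profile, each scaled to mean 0 and SD 1 over the 6 libraries. Every gene is below 0 in the 3 double knockouts and above 0 in the 3 controls, which follows from how the 5 were chosen. Mfsd2a reaches -1.20 in double knockout replicate 2 and 0.47 in control replicate 3.

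The scaled profiles take out the amount of change, and the order of the libraries was still not the same in all 6 genes. Mfsd2a lay at -0.81, -1.20 and -0.61 in double knockout replicates 1, 2 and 3, and at 1.05, 1.11 and 0.47 in control replicates 1, 2 and 3. Cyp2a12 and Hsd17b13 had the same order of all 6 libraries as Mfsd2a, while Tdo2, Pbld2 and Olig1 did not.

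Around the members, 7 lists of related genes held 112 genes, none of them a member, of which 102 were tested. The lists were drawn up with earlier results of these data known. Their counts and shares, also where set against all tested genes, are therefore a description. In these lists 1 gene rose and 3 fell in the double knockouts (limma, Benjamini-Hochberg adjusted p under 0.05). Of all tested genes 0.313% passed that threshold, 0.169% higher and 0.144% lower, 14.9% had an unadjusted p under 0.05, and the authors' deposited table called 2.7% higher and 1.7% lower. The 5 lists of lipid enzymes and transporters contributed 0 of those calls among 65 tested genes, with an unadjusted limma p under 0.05 in 14, and the authors' deposited table called 6 of them higher and 2 lower. All 4 calls came from the lists of fasting and PPARA genes and of LXR genes.

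Other carriers of lysolipids did not change at the threshold. Spns1, which exports lysophospholipids from the lysosome, measured 14.9, 12.2 and 13.0 FPKM in the double knockouts, and 13.1, 14.2 and 10.0 FPKM in the controls. Spns2, an exporter of sphingosine 1-phosphate, measured 11.6, 11.9 and 19.3 FPKM in the double knockouts, and 11.5, 7.51 and 12.6 FPKM in the controls. Both overlapped between the groups (log2 differences 0.10 and 0.40, limma adjusted p = 0.808 and 0.495), with 0 at an unadjusted limma p under 0.05 and 0 called in the authors' deposited table. Mfsd2b, the paralog of Mfsd2a that carries sphingosine 1-phosphate in blood cells, stayed at or below 0.216 FPKM in every library and was not tested.

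The phospholipases and lysophospholipases, a list of enzymes that form lysophospholipids or break them and their products down, gave 0 calls among 18 tested. Of these, 8 had a positive and 10 a negative log2 difference, with a median of -0.02. An unadjusted limma p was under 0.05 in 2, and the authors' deposited table called 1 higher. The groups did not overlap in 22.2% of them, close to the 22.9% of all tested genes. Lcat, the plasma enzyme that forms lysophosphatidylcholine on lipoproteins, measured 308, 260 and 291 FPKM in the double knockouts, and 318, 366 and 381 FPKM in the controls (log2 difference -0.31, limma adjusted p = 0.411). Lypla1, a lysophospholipase and acyl-protein thioesterase, averaged 92.4 ± 8.66 FPKM in double knockouts and 114 ± 30.1 FPKM in controls (SD, n = 3 each, limma adjusted p = 0.558). Chosen after their values were seen, Gpcpd1, which splits glycerophosphocholine, and Pla2g15, the lysosomal phospholipase A2, were on the high side. Gpcpd1 measured 96.6, 98.2 and 144 FPKM in the double knockouts, and 42.5, 34.6 and 101 FPKM in the controls (log2 difference 1.05, limma adjusted p = 0.290), and was past the threshold without control replicate 3 (1.51, limma adjusted p = 0.0320). Replicate 3 was the highest in both groups, so leaving out that control alone widens the difference. With any other library left out, 0 genes of the 7 lists passed the threshold. Pla2g15 measured 6.93, 7.44 and 7.21 FPKM in the double knockouts, and 5.37, 4.88 and 3.82 FPKM in the controls, without overlap and not past the threshold.

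The 13 other glycerolipid acyltransferases were all tested, with 0 calls, 10 positive and 3 negative log2 differences and a median of 0.15. An unadjusted limma p was under 0.05 in 2, and the authors' deposited table called 2 higher. Agpat2 and Agpat3, which acylate lysophosphatidic acid, were the most abundant. Agpat2 averaged 153 ± 21.2 FPKM in double knockouts and 154 ± 39.6 FPKM in controls, and Agpat3 averaged 112 ± 5.42 FPKM in double knockouts and 100.4 ± 13.2 FPKM in controls (SD, n = 3 each, limma adjusted p = 0.987 and 0.651). Chosen after its values were seen, Lpgat1, a lysophosphatidylglycerol acyltransferase, measured 55.3, 64.2 and 73.3 FPKM in the double knockouts, and 30.5, 26.0 and 45.2 FPKM in the controls. It did not overlap between the groups (log2 difference 0.93, limma adjusted p = 0.161) and was past the threshold without control replicate 3 (1.15, limma adjusted p = 0.0314). Lpgat1 too was highest in replicate 3 of both groups, and was not past the threshold with any other library left out.

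The genes of phosphatidylcholine and phosphatidylethanolamine synthesis gave 0 calls among 16 tested, 5 positive and 11 negative log2 differences, and a median of -0.16. An unadjusted limma p was under 0.05 in 6, and the authors' deposited table called 1 lower. The groups did not overlap in 56.2% of them, 6 lower and 3 higher, against 22.9% of all tested genes. Pemt, which methylates phosphatidylethanolamine to phosphatidylcholine, measured 206, 191 and 261 FPKM in the double knockouts, and 269, 336 and 457 FPKM in the controls. Pcyt2, the rate-limiting enzyme of phosphatidylethanolamine synthesis from ethanolamine, measured 143, 117 and 153 FPKM in the double knockouts, and 204, 221 and 168 FPKM in the controls. Their log2 differences were -0.66 and -0.52 (limma adjusted p = 0.270 and 0.260). Chosen after their values were seen, the other 4 without overlap on the low side were Etnk2 (log2 difference -1.02), Chpt1 (-0.53), Chkb (-0.54) and Cept1 (-0.24), and the 3 on the high side were Selenoi (0.50, named Ept1 in the files), Lpin3 (0.39) and Etnk1 (0.21), none of them past the threshold. The summed hepatocyte markers were lower in the same libraries, and their part in these differences was not tested.

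The supply of acyl-CoA, the donor that the acyltransferases use, also gave 0 calls among 16 tested, with 8 positive and 8 negative log2 differences and a median of -0.04. An unadjusted limma p was under 0.05 in 4, and the authors' deposited table called 3 higher and 1 lower. Scd1, the stearoyl-CoA desaturase, ranged from 384 to 3223 FPKM in the double knockouts and from 751 to 2154 FPKM in the controls. Slc27a2, a fatty acid transporter and acyl-CoA synthetase, averaged 908 ± 109 FPKM in double knockouts and 1055 ± 87.5 FPKM in controls (SD, n = 3 each, limma adjusted p = 0.601). Chosen after its values were seen, Acsl4, which activates arachidonate, measured 21.9, 22.0 and 30.0 FPKM in the double knockouts, and 9.97, 8.96 and 17.8 FPKM in the controls. It did not overlap between the groups (log2 difference 1.00, limma adjusted p = 0.184) and was past the threshold without control replicate 3 (1.28, limma adjusted p = 0.0289). Acsl4 too was highest in replicate 3 of both groups, and was not past the threshold with any other library left out.

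Fasting and PPARA genes, the group to which Mfsd2a itself is known to belong in liver, were tested in full, 25 of 25. In the double knockouts 3 of them fell and 0 rose, with 9 positive and 16 negative log2 differences and a median of -0.36. The authors' deposited table called 8 lower and 1 higher, against 1.7% lower and 2.7% higher of all tested genes. The groups did not overlap in 52.0% of them, 11 lower and 2 higher, against 22.9% of all tested genes (11.6% lower and 11.3% higher). Genes that averaged 20 FPKM or more had a median log2 difference of -0.18, and the part of that shift here was not tested. Acaa1b, a peroxisomal thiolase, measured 204, 208 and 189 FPKM in the double knockouts, and 647, 635 and 785 FPKM in the controls (log2 difference -1.77, limma adjusted p = 0.0155). Cyp4a14, a fatty acid ω-hydroxylase, measured 84.1, 138 and 120 FPKM in the double knockouts, and 473, 583 and 523 FPKM in the controls (-2.22, limma adjusted p = 0.0170). Acot1, a cytosolic acyl-CoA thioesterase, measured 14.7, 11.5 and 6.25 FPKM in the double knockouts, and 67.8, 74.4 and 43.4 FPKM in the controls (-2.45, limma adjusted p = 0.0358, and 0.0589 after quantile normalization). All 3 were lower in 3 of 3 double knockouts than in any control.

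The fall was not shared by every fasting gene. Chosen after its values were seen, the receptor gene Ppara itself measured 34.2, 41.3 and 46.8 FPKM in the double knockouts, and 27.5, 24.1 and 47.0 FPKM in the controls (log2 difference 0.35, limma adjusted p = 0.550). Vnn1, a pantetheinase chosen in the same way, was higher in every double knockout than in any control, at 61.1, 63.3 and 47.1 FPKM against 29.1, 25.8 and 30.7 FPKM in the controls (0.97, limma adjusted p = 0.0807). Set beside these, Mfsd2a had the largest ratio of group means, 36.3-fold, with 5.72-fold for Acot1, 4.61-fold for Cyp4a14 and 3.44-fold for Acaa1b. The contrast chose Mfsd2a, so its place in that order is a description. The Cyp4a, Acot and Acaa1 genes have close paralogs, and reads shared among them may have been split.

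Of the 12 LXR genes, the group in which Lpcat3 is a known target, 1 rose and 0 fell, with 8 positive and 4 negative log2 differences and a median of 0.24. Abcg8, which pairs with Abcg5 to export sterols into bile, measured 68.3, 65.4 and 79.4 FPKM in the double knockouts, and 29.3, 25.0 and 22.5 FPKM in the controls (log2 difference 1.44, limma adjusted p = 0.0219), higher in 3 of 3. The groups did not overlap in 41.7% of the list, 4 higher and 1 lower, against 22.9% of all tested genes. The 4 on the high side were Abcg8, Abcg5 (0.77), Abca1 (0.79) and Rxra (0.62), the last 3 named after their values were seen and not past the threshold, and the 1 on the low side was Nr1h3, the receptor LXRα (-0.23). The log2 difference of Lpcat3, 0.43, lay between those of Abcg1 (0.28) and Rxra in this list. The authors' deposited table called 3 of the 12 higher and 0 lower.

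**Figure D5:**
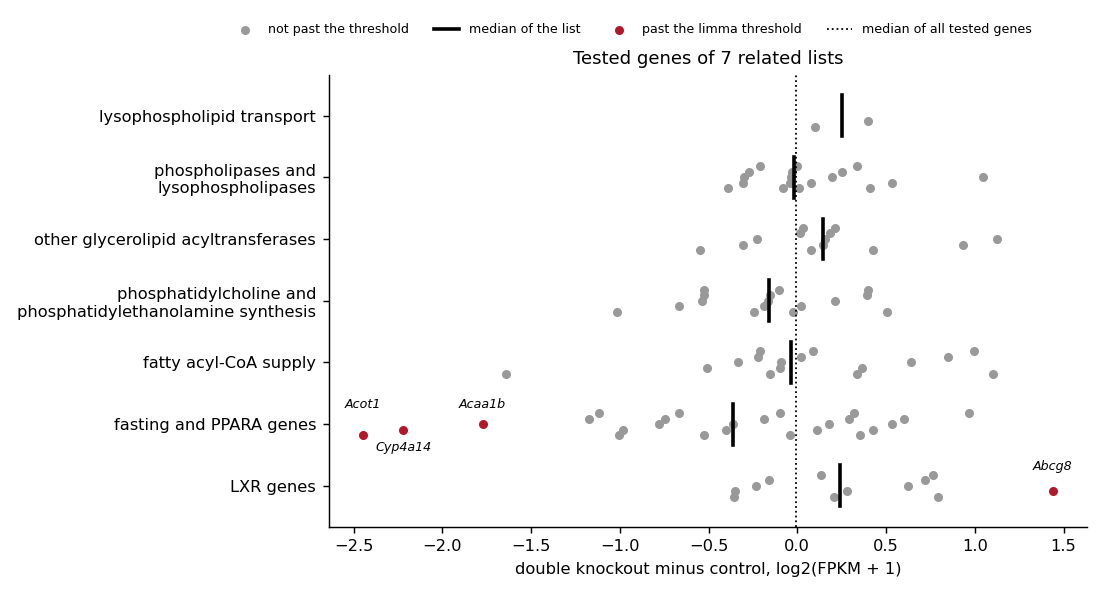
log2(FPKM + 1) difference, double knockout minus control, for each tested gene of the 7 related lists, 1 row per list. Red points passed the limma threshold, grey points did not, thick bars are list medians and the dotted line is the median of all tested genes. The 3 genes that fell are in the row of fasting and PPARA genes, and Abcg8 is the 1 gene that rose.

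The plot of the 7 lists shows that the calls sit at the ends of the last 2 rows, and that the median of each of the 5 lipid rows lies within 0.25 of 0. All 4 calls were kept without control replicate 3 (limma adjusted p = 0.00773 to 0.0179) and were lost on removal of any 1 of the remaining 5 (limma adjusted p = 0.0616 to 0.189), with unchanged direction. Without control replicate 3, 2.05% of all tested genes passed the threshold (1.31% higher and 0.746% lower), and 10 genes of the 7 lists did, 6 higher and 4 lower. With any other library left out, 0 genes of the lists did.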

How the data were processed

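Liver mRNA of 3 double knockout and 3 control mice was sequenced from a stranded mRNA kit, per the labels' protocols. Per the submitters' processing notes, the tools were Cuffdiff 2.2.1, Picard 1.119, STAR 2.4.2a, Trimmomatic and bcl2fastq 2.17.1.14, with build GRCm38 (mm10). The sources used here give neither the annotation nor whether counting used strand. The authors deposited FPKM per gene and library, and a group comparison with p-values and q-values per gene, per the file headers. Another 0 columns of per-library values were present.

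FPKM is not a count, so limma 3.58.1 (R 4.3.3) was fitted to log2(FPKM + 1) for the 11810 genes that averaged 0.5 FPKM or more, with a mean-variance trend and Benjamini-Hochberg adjustment at 0.05. FPKM depends on library totals and transcript length, so abundant transcripts shift the others. Steps among low values put 1 fragment on 1 kb at 0.0707 to 0.0758 FPKM (269 to 298 genes per library, spread 3.72% to 4.46%). If each library was scaled to its own total, that is 13200000 to 14100000 fragments per library. Between 16087 and 16698 genes were above 0 in a library.

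The members and lists were chosen with earlier results of these data known. Named were the members, the deleted genes, in each list up to 4 called genes with the smallest adjusted p or, with none called, the 2 most abundant genes, the 5 genes most like Mfsd2a, and tested genes within 200 kb. Positions came from GENCODE M21 and promoter sequences from RefSeq (GRCm38.p6), which matched all 8 members. Exact permutation of 3 against 3 libraries cannot give a p below 0.1. The alternatives changed the pseudocount (0.1, 0.25), the filter (none, 2 FPKM) and the scaling (quantile, upper quartile). Others were library weights, a replicate block, each library left out and, chosen after seeing the data, removal of a length and GC trend.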

Additional observations from a re-analysis of the deposited data

How the results depend on the processing

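Filters on low values leave the members' own values as they are. Under the other alternatives Mfsd2a was lower in the double knockouts, with a log2 difference between -4.92 and -4.00 when libraries were left out in turn, -5.33 with a pseudocount of 0.1 and -4.81 with library weights (added after seeing the data for the members). Lpcat3 was higher under the same alternatives, at 0.35 to 0.54 with libraries left out and 0.48 with library weights. The Lpcat3 share differed by 4.50 to 10.43 percentage points with libraries left out. Of the 7 acyltransferases, 3 had a positive log2 difference, and 2 to 4 did under the alternatives. Genes past the threshold numbered 37, against 2 without a filter on low values, 563 with library weights (control replicate 3 was given a weight of 0.232) and 2 to 242 with libraries left out. Genes without overlap numbered 2699, against 3265 to 5274 with libraries left out. Of the 7 related lists 4 genes were past the threshold, against 0 without a filter (32 at an unadjusted limma p under 0.05), 14 with library weights and 0 to 10 with libraries left out (22 to 42 unadjusted). With fewer libraries, non-overlap is easier to reach by construction. Otherwise the cause was not tested.

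Replicate numbers are shared between the groups, but nothing says that they pair the animals. Deviations from the group means correlated at 0.220, -0.075 and 0.301 between same-numbered libraries 1, 2 and 3. Between differently numbered libraries the range was -0.321 to 0.254. The value for replicate 3 was thus the highest of all pairs, and whether the 2 replicates 3 share a condition was not tested. With the replicate block, 50 genes were past the threshold, 5 genes of the lists were, and the Mfsd2a difference was -4.41.

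Depth limits Mboat1, Mboat2, Lpcat1 and Lpcat4, whose values rest on few fragments. With a pseudocount of 0.1, the log2 difference was 0.57 for Lpcat2 and -0.29 for Lpcat1.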
